A study of Mus musculus with 15 samples.

Results

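Immediate early genes are the genes that a stimulated cell transcribes first, from factors already present and without new protein synthesis. The data on 10 of them, Fos, Fosb, Jun, Junb, Egr1, Egr2, Ier2, Arc, Nr4a1 and Dusp1, are described here out of 53337 genes in the table. The rule takes them by name and uses no measured value, but the members were chosen with earlier results of these data known. The samples were E18 dorsal forebrains of C57BL/6J mouse embryos whose dams were infused with arginine vasopressin (AVP) or with saline, named vehicle in the labels, from subcutaneous minipumps through gestation. There were 4 AVP male, 4 vehicle male, 3 AVP female and 4 vehicle female libraries, and replicates are named by the number in their label. The sampling notes give 16 samples from 8 litters, and 1 AVP female was left out by the authors. Litters are not named for the libraries, some of which must share one, so the p-values measure the spread between these libraries only. The paper states that the samples of each group and sex came from independent litters. Sharing would then fall between males and females, and enter the comparisons and correlations that use both. AVP was given to the dam, and how much of it reached the embryos was not measured in these data.

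In neurons, calcium entry and growth factor signals reach these genes through kinases that act on CREB and on serum response factor with its ternary complex partners. Fos and Jun family proteins pair to form the AP-1 transcription factor, Egr proteins are zinc finger factors, Nr4a1 is an orphan nuclear receptor, Arc is a synaptic protein that takes part in removing AMPA receptors, and Dusp1 is a phosphatase that switches off the MAP kinases. Their RNAs are short-lived, so their levels in a dissected tissue can follow both the activity of its cells and the minutes around dissection. The question put to the libraries was whether these genes differed with gestational AVP in either gender, and whether they moved together from library to library.

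Abundance was read as TPM, the share of a library's transcripts that a gene takes after correction for length, scaled so that each library has the same sum. TPM keep no read counts, so the number of reads behind a value cannot be taken from the table. Of the cortical plate neuron markers, 9 of 9 were expressed, with summed levels between 1025 and 1378 TPM. The libraries were less alike in other markers. Choroid plexus epithelium markers summed to between 7.29 TPM (vehicle male 13) and 2288 TPM (AVP female 3). Striatal projection neuron markers summed to between 37.0 TPM (AVP female 10) and 147 TPM (AVP male 8). The library labelled vehicle male 12 had female sex-linked transcripts, with Xist at 266 TPM and a Y-linked sum of 0.489 TPM. Mitochondrially encoded genes took between 4.36% and 9.36% of all TPM, and cytoplasmic ribosomal protein genes between 8.50% and 11.01%. Transcripts annotated as retaining an intron took between 3.51% and 6.78%. In bulk tissue, fewer cells expressing a gene and less of its RNA per cell cannot be told apart.

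The levels of the members in TPM spanned a wide range. Jun, with a median of 22.4 TPM over the 15 libraries, and Dusp1, with 21.6 TPM, were the most abundant, near the middle of the 15078 genes that passed a filter of 1 TPM in 50% of the libraries. Ier2, a small nuclear protein, followed at 10.9 TPM. Nr4a1 (4.97 TPM), Egr1 (4.22 TPM) and Junb (3.75 TPM) came next, and Fos (1.27 TPM) and Arc (1.13 TPM) lay just above the filter, with Fos at 1 TPM or more in 12 libraries and Arc in 9. Egr2, with a median of 0.178 TPM, and Fosb, with 0.105 TPM, were under 1 TPM in every library and did not enter the tests, so 8 of the 10 members were tested.

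Several neighbours in this order were not apart, since their ranges overlapped and the order turned in some libraries. Jun was above Dusp1 in 12 of 15 libraries, Nr4a1 above Egr1 in 11, Egr1 above Junb in 9 and Fos above Arc in 9. Other steps held in every library. Dusp1 was above Ier2, Ier2 above Nr4a1 and Junb above Fos in 15 of 15 libraries, and the ranges of Dusp1 and Ier2 did not overlap. Arc was above Egr2 in 14 and Egr2 above Fosb in 13.

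The close relatives of these genes had other levels. JunD (Jund), a Jun family member that is present in most resting cells, had a median of 71.5 TPM and ranged from 54.1 to 99.6 TPM. Among the partners of Jun, Fosl2 had a median of 13.3 TPM and Fosl1 one of 0. Nr4a2, an orphan receptor that also marks subplate and claustral neurons, had a median of 59.0 TPM, with a range from 19.5 to 136 TPM, and Nr4a3 one of 26.8 TPM, both above Nr4a1. Egr3 had a median of 3.10 TPM and Egr4 one of 0.168 TPM.

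**Figure D1:**
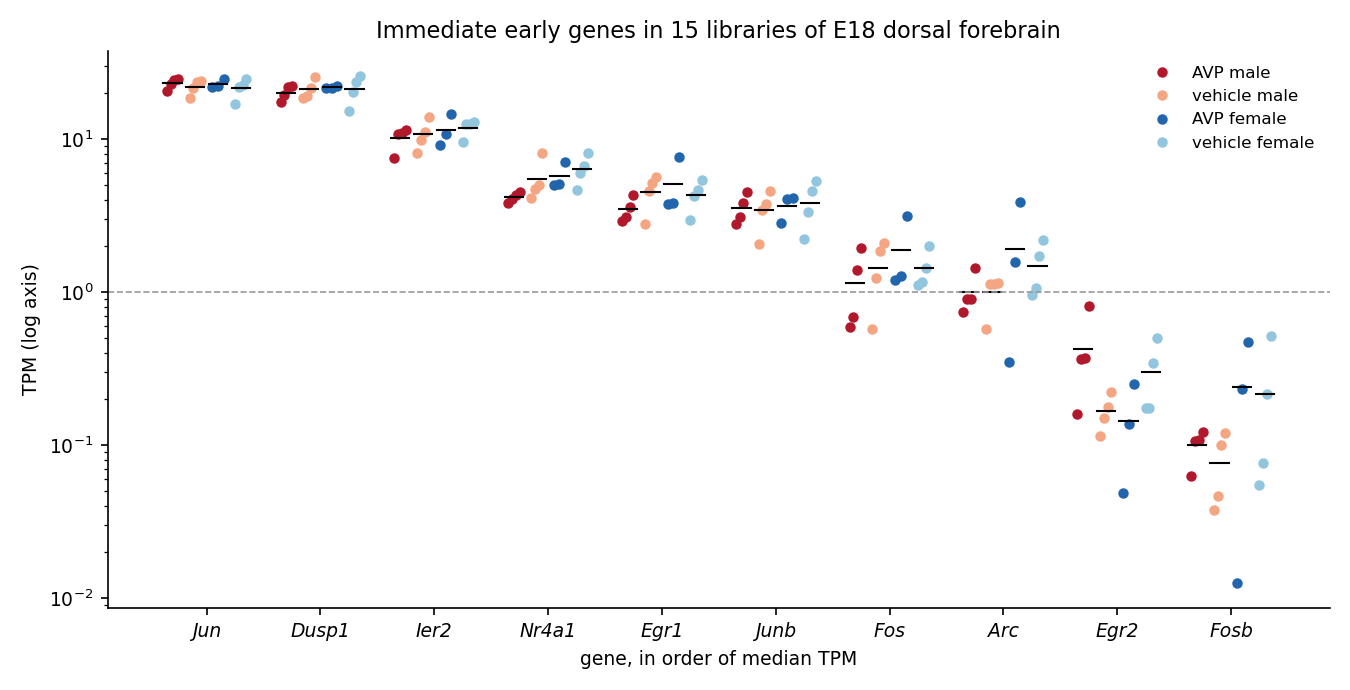
Level of each of the 10 genes in TPM, on a log axis, with 1 point per library, the 4 groups side by side and a black bar at each group's mean. The dashed line is 1 TPM. Jun and Dusp1 sit near 20 TPM in every group, Egr2 and Fosb stay below the line, and the points of the groups overlap for every gene.

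Spread between libraries was read as the residual SD of log2(TPM + 0.5) within the groups, beside the 500 genes nearest in mean level. Arc had an SD of 0.59 against a median of 0.37 for its neighbours in level, at percentile 84.8 among them. Fos had an SD of 0.51 at percentile 75.8, and Egr1 and Ier2 (0.37 and 0.27) were both at percentile 68.8. Dusp1 was at percentile 65.6 and Junb at 61.4. Nr4a1, with an SD of 0.29, was in the middle of its neighbours, and Jun, with an SD of 0.16, varied less than most of them.

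In males, AVP and vehicle were compared first, with limma on log2(TPM + 0.5) over 15271 genes. Of the 8 members tested, 0 passed an adjusted p of 0.05, where 0.00655% of all genes did, and 0 had an unadjusted p under 0.05, where 13.5% of all genes did. That share was 8.13% without AVP male 1 and 8.14% without vehicle male 12. Its split went with the scaling, with 12.4% of genes lower and 1.11% higher as deposited, 5.02% and 4.99% after quantile normalization and 5.69% and 5.85% after median-of-ratios scaling. All 10 members overlapped between the groups, while 7.27% of all genes tested did not overlap. The median log2 difference of the 8 members was -0.07, beside -0.10 for all genes, and 5 of the 8 lay above that median. The median of all genes was 0.02 after quantile normalization.

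The member with the smallest p in males was Nr4a1, which is induced in many cell types by cAMP and calcium. Nr4a1 was at 4.27, 3.79, 4.03 and 4.52 TPM in the AVP males, 8.06, 4.69, 5.03 and 4.13 TPM in the vehicle males, 5.09, 7.02 and 4.97 TPM in the AVP females and 8.09, 6.67, 4.67 and 5.97 TPM in the vehicle females. The AVP males were the tightest group, and 3 of the 4 vehicle males lay between 4.13 and 5.03 TPM, close to the AVP males, with vehicle male 4 apart at 8.06 TPM. The log2 difference was -0.32 ± 0.19 (SE), with adjusted p = 0.469 by limma, the exact two-sided permutation test of the group means gave 0.0857, and the 95% interval of the fold ran from 0.592 to 1.08. Without vehicle male 12, whose label its transcripts go against, the log2 difference was -0.35 for Nr4a1 and -0.21 for Egr1. Within library numbers 1 to 8 that of Nr4a1 was -0.56 and within 13 to 20 it was -0.09, with 2 libraries of each group in both.

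Egr1, a factor whose RNA tracks neuronal activity in the postnatal cortex, gave a difference of similar size. Egr1 was at 3.60, 3.09, 4.29 and 2.90 TPM in the AVP males, 5.13, 2.77, 5.60 and 4.58 TPM in the vehicle males, 3.80, 7.59 and 3.74 TPM in the AVP females and 4.61, 2.96, 4.22 and 5.37 TPM in the vehicle females. Of the 4 vehicle males, 2 lay above 5 TPM and none of the AVP males did, while vehicle male 5 was the lowest of all libraries. The log2 difference in males was -0.31 ± 0.21 (SE) with adjusted p = 0.527 by limma, and it was -0.22 after median-of-ratios scaling. Without vehicle male 5 it was -0.51, with an adjusted p of 0.317.

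Jun had the narrowest interval. Jun was at 24.4, 24.8, 20.7 and 23.0 TPM in the AVP males, 23.5, 23.9, 21.4 and 18.5 TPM in the vehicle males, 22.1, 24.6 and 21.9 TPM in the AVP females and 24.6, 22.4, 21.98 and 16.8 TPM in the vehicle females. The groups overlapped, and the lowest library was vehicle female 15. In males the fold was 1.06, with a 95% interval from 0.905 to 1.25, and no other member was bounded as closely. Dusp1 came next, with a fold of 0.957 and an interval from 0.789 to 1.16.

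For Fos the interval was wide. Fos was at 1.39, 0.686, 1.94 and 0.590 TPM in the AVP males, 2.08, 1.84, 1.24 and 0.575 TPM in the vehicle males, 1.20, 3.13 and 1.27 TPM in the AVP females and 1.44, 1.16, 1.11 and 1.99 TPM in the vehicle females. Every group held a library at 1.20 TPM or below and another at 1.94 TPM or above, so the groups overlapped. In males the log2 difference was -0.23 ± 0.36 (SE), and the fold had a 95% interval from 0.486 to 1.49. Arc differed by 0.00 ± 0.23 (SE) in males, and its fold ran from 0.694 to 1.44. Differences of low genes such as Fos and Arc are understated on a scale with 0.5 TPM added.

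Egr2 was outside the tests, under 1 TPM in every library, and its male groups overlapped. Egr2 was at 0.369, 0.366, 0.160 and 0.804 TPM in the AVP males, 0.221, 0.178, 0.115 and 0.151 TPM in the vehicle males, 0.248, 0.136 and 0.0487 TPM in the AVP females and 0.342, 0.175, 0.174 and 0.502 TPM in the vehicle females. Of the 4 AVP males, 3 lay above all vehicle males, and the other, at 0.160 TPM, lay among them. The exact two-sided permutation test of the means in males gave p = 0.0857. With no filter on low values, limma gave a log2 difference in males of 0.43 with adjusted p = 0.567 and an interaction with gender of -0.73 with unadjusted p = 0.0208 and adjusted p = 0.872. In that setting 4.1% of all genes had an interaction with an unadjusted p under 0.05. Each of the 7 annotated Egr2 transcripts was listed at 0 in at least 5 libraries.

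In females the members gave no call either. Of 8 members tested, 0 passed the adjusted threshold in limma, as did 0% of 15132 genes, and 0 had an unadjusted p under 0.05, beside 4.51% of all genes. Without AVP female 10 that share was 10.5%, and without vehicle female 6 it was 2.80%. All 10 overlapped between the groups, where 5.55% of all genes did not. The members' median log2 difference was 0.05, beside -0.05 for all genes. The largest difference was that of Fos, at 0.23 ± 0.32 (SE), and its fold had a 95% interval from 0.706 to 1.95. Nr4a1 differed by -0.14 ± 0.22 (SE), and Egr1 by 0.17 ± 0.29 (SE), which became -0.14 without AVP female 10. The adjusted p by limma was 0.999 for each of the 8 members. Markers of other cell types moved with AVP in the same females: at an unadjusted p under 0.05, 5 of 5 red blood cell, 4 of 4 border macrophage and 6 of 7 meningeal fibroblast markers were higher, as were 2.34% of all genes. Of the red blood cell markers, 0 of 5 were past that p without vehicle female 6, vehicle female 15 or AVP female 11. Summed levels were 47.3 to 54 TPM in AVP and 15.3 to 30 TPM in vehicle females for the macrophage list and 133 to 179 and 79.1 to 97.5 TPM for the fibroblast list. The part of these cells in the members' values was not tested.

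Arc had the widest interval of the females. Arc was at 0.902, 1.43, 0.899 and 0.736 TPM in the AVP males, 1.14, 1.13, 1.13 and 0.574 TPM in the vehicle males, 1.56, 3.85 and 0.348 TPM in the AVP females and 1.72, 1.07, 0.953 and 2.19 TPM in the vehicle females. The AVP females held both the highest and the lowest library of all 15, replicate 10 at 3.85 TPM and replicate 11 at 0.348 TPM. The fold was 1.03, with a 95% interval from 0.455 to 2.31. In these 3 AVP females Fos, Egr1 and Arc were each highest in replicate 10.

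**Figure D2:**
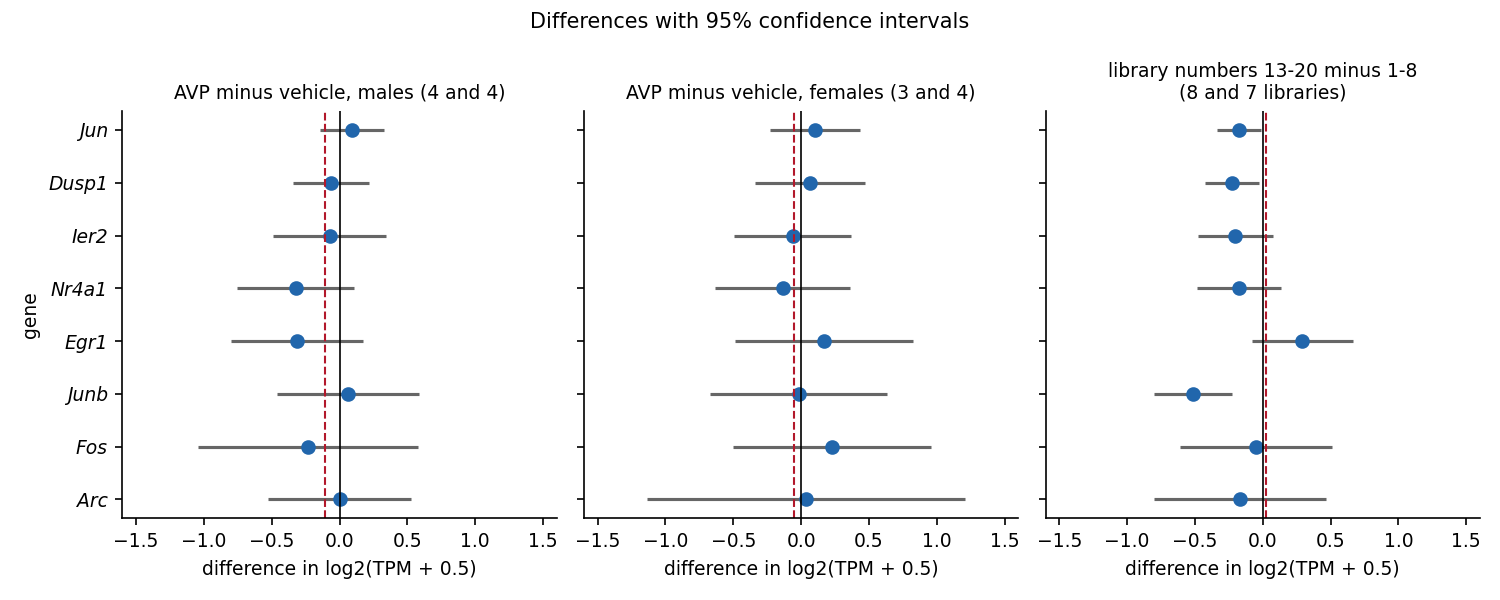
Difference in log2(TPM + 0.5) for the 8 genes tested (points) with 95% confidence intervals (lines), for AVP against vehicle in males and in females and for library numbers 13 to 20 against 1 to 8. The dashed line is the median of all genes tested. All intervals of the AVP comparisons span 0, while those of Jun, Junb and Dusp1 in the comparison of library numbers lie below it.

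The effect of AVP was then compared between genders. The interaction was past the adjusted threshold for 0 of 8 members and 0% of 15078 genes, and past an unadjusted p of 0.05 for 0 of 8 and 4.14%. That share was 2.65% without AVP male 1 and 8.00% without AVP female 11, and it was 6.89% without AVP female 3 or AVP male 9. The interaction was largest for Egr1, where the female difference exceeded the male one by 0.48 ± 0.37 (SE) on the log2 scale, and for Fos, by 0.46 ± 0.50. Without vehicle male 12, whose label its transcripts go against, the interaction was 0.37 ± 0.38 (SE) for Egr1. It was then larger for Fos, at 0.48 ± 0.54. With the genders pooled, 0 of 8 members and 0% of genes differed between AVP and vehicle after adjustment, and 0 of 8 against 10.4% before it, a share that was 24.0% without AVP female 10, 6.38% without vehicle male 4 and 6.16% without AVP female 11. In that fit the 95% intervals of the folds were from 0.944 to 1.21 for Jun, from 0.854 to 1.17 for Dusp1 and from 0.786 to 1.16 for Ier2.

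Females were compared with males over both treatments. Again 0 of 8 members and 0% of genes passed after adjustment in limma, and 0 of 8 members against 1.39% of genes had an unadjusted p under 0.05. The share was 2.10% after quantile normalization or without vehicle male 5, 2.58% with no filter, 2.37% without vehicle female 14 and 4.01% without AVP female 10. In this comparison vehicle male 12 counts as male, against its sex-linked transcripts. Without it 7 of 15164 genes passed after adjustment, and without vehicle female 6, 7 of 15187 did. Nr4a1 came nearest, with a female minus male difference of 0.30 ± 0.14 (SE) on the log2 scale and an unadjusted p of 0.0525. Without vehicle male 12, the library with female transcripts, the difference was 0.29 with an unadjusted p of 0.0753. The unadjusted p was under 0.05 in 7 of 23 alternatives, such as quantile normalization, where the difference was 0.31, and the adjusted p was never below 0.923.

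Co-variation was described next, from values centred on the means of the 4 groups, so that the groups could not give rise to it. Of the 45 pairs of members, 30 had a Pearson r above 0 over the 15 libraries, and the median r was 0.29 (mean 0.21). Across pairs of 1508 expressed genes, taken at regular steps by gene identifier, 65.1% had an r above 0 and the median r was 0.16.

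The highest r was that of Jun and Junb. These genes, whose products are both subunits of AP-1, had r = 0.87 and rho = 0.80, with exact permutation p = 0.000940 and 0.00291, the libraries being rearranged within groups. Rearrangement went across library numbers 1 to 8 and 13 to 20, so a difference between these that both genes share stays in the p. Of the 45 pairs this one alone had an adjusted p under 0.05, at 0.0423 for r, and for rho the adjusted p was 0.131. Without the 2 libraries farthest from the median of Jun, r was 0.72. Within library numbers 1 to 8 it was 0.51, and within 13 to 20 it was 0.85. Leaving out each library in turn kept r between 0.805 and 0.905, but the adjusted p ranged from 0.0304 to 0.213, highest without vehicle male 13. It stayed under 0.05 in 5 of 15 cases, without AVP male 2, 8 or 9, AVP female 3 or vehicle male 5. Of 15077 other genes, only 3 had a higher r with Jun than Junb had, and the same number had a higher r with Junb than Jun had.

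Dusp1 followed Jun with r = 0.81 and rho = 0.72 (exact permutation, adjusted p = 0.194 and 0.279) and Junb with r = 0.70 and rho = 0.61 (adjusted p = 0.252 and 0.326). Neither pair passed the correction, although r of Jun and Dusp1 passed it under quantile and median-of-ratios scaling. An r above 0.8 was met in 1.79% of gene pairs, and r of Jun and Dusp1 was 0.37 within library numbers 1 to 8 and 0.81 within 13 to 20. From its protein-coding transcripts alone, Dusp1 had an r of 0.71 with Jun. Junb was at 4.50, 3.84, 4.14, 4.54, 3.75, 5.27 and 4.54 TPM in library numbers 1 to 8 and at 3.09, 2.80, 4.06, 2.80, 3.44, 2.07, 3.32 and 2.23 TPM in library numbers 13 to 20. All but 1 of the latter lay below the lowest of the former. Dusp1 was at 19.4, 21.7, 17.3 and 22.05 TPM in the AVP males, 25.4, 21.5, 19.05 and 18.5 TPM in the vehicle males, 21.6, 21.6 and 22.2 TPM in the AVP females and 23.5, 25.8, 20.3 and 15.2 TPM in the vehicle females. The lowest library of Dusp1, vehicle female 15, was also the lowest of Jun and, after vehicle male 13, of Junb.

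The promoters of Jun, Junb, Dusp1 and Fos are shown so that the letters upstream of the members with the highest r can be read beside those of Fos, whose r was 0.14 with Jun, 0.32 with Junb and -0.16 with Dusp1. They are the 250 bases before the RefSeq start (GRCm38.p6), and the capitals mark TGACG on either strand, the core that CREB and ATF proteins bind, and TGACNTCA, the full palindrome and its variant known from the Jun promoter. Jun lies at chr4:95052223-95052472 (minus strand), Junb at chr8:84978749-84978998 (minus), Dusp1 at chr17:26508473-26508722 (minus) and Fos at chr12:85473640-85473889 (plus).
Jun: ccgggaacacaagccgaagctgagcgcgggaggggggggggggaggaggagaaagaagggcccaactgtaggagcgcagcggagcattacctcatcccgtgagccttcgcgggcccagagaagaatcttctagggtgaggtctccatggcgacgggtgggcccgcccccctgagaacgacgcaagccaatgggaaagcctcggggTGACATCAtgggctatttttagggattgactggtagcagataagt
Junb: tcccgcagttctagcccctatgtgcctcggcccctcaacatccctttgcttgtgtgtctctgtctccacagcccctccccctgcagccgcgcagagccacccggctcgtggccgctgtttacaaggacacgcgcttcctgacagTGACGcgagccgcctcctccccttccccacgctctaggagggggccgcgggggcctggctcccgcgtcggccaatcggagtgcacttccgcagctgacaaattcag
Dusp1: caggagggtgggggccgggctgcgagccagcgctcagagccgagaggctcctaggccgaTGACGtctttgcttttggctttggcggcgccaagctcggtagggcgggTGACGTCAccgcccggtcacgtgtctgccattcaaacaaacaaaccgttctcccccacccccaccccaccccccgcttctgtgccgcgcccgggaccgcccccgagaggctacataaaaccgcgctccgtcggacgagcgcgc
Fos: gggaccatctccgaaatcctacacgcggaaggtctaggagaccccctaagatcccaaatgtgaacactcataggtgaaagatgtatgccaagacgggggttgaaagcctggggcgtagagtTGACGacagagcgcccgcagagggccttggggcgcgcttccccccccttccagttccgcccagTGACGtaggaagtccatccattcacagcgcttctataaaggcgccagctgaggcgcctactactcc

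Windows of 300 bases (the 250 upstream bases and 50 from the start on) were found for 7 of the 10 members, and Arc, Ier2 and Egr1 had none in the table used. TGACG occurred in a window of 6 of the 7, in all but Jun, against 20.8% of 32851 windows. A member counted where any of its windows held the motif, while the percentages are shares of windows. Egr2 had several windows, some of them overlapping, and so more chances of a match. The palindrome TGACGTCA, which contains TGACG on both strands, occurred in Dusp1 alone and in 1.79% of windows, and TGACNTCA in Jun and Dusp1 and in 8.83%. The CArG box of serum response factor was in an Egr2 window and in 1.63% of windows, and GCGNGGGCG, an Egr site, in Fosb and Nr4a1 and in 5.55%. TATAAA was in Fos and Junb and in 13.6% of windows. TGANTCA of AP-1 and CCGGAAG of ETS factors were in none of the 7, beside 7.81% and 8.86% of windows. These are matches of letters on either strand, and Jun, Junb and Dusp1 held none of these motifs in common that Fos lacked. Sites more than 250 bases upstream lay outside the windows, so a missing match does not mean that the gene lacks the site.

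Fos, Arc and Egr1, all genes that neuronal activity induces in the postnatal cortex, had r between 0.51 and 0.57 with each other, where 17.7% of gene pairs had an r above 0.5. Junb with Nr4a1 (0.60) and Jun with Ier2 (0.59) were higher. Among 15077 other genes ordered by r with Arc, Fos was at rank 3702 and Egr1 at 4044. By r with Egr1, Arc was at 2260 and Fos at 2942, and by r with Fos, Arc was at 507 and Egr1 at 1081. Fos and Arc had r = 0.57 and rho = 0.55 (exact permutation, adjusted p = 0.339 and 0.326), Egr1 and Arc r = 0.55, and Fos and Egr1 r = 0.51, none of which passed the correction. In library numbers 1 to 8 alone, r was -0.05 for Fos and Arc and 0.30 for Egr1 and Arc, and in 13 to 20 it was 0.71 and 0.91, so that of Fos and Arc did not hold within both. The second set holds AVP female 10, the highest library of all for Fos, Arc and Egr1. Egr1 and Ier2 went opposite ways, with r = -0.67 and rho = -0.57 (exact permutation, adjusted p = 0.252 and 0.326), and a value under -0.6 was met in 1.64% of gene pairs. Ier2 was at 11.5, 10.9, 7.47 and 10.8 TPM in the AVP males, 9.91, 13.8, 11.2 and 8.14 TPM in the vehicle males, 10.8, 9.12 and 14.5 TPM in the AVP females and 13, 12.4, 12.6 and 9.54 TPM in the vehicle females. The highest library of Ier2, AVP female 11, was below the median of Egr1, and AVP female 10 was the highest of Egr1 and below the median of Ier2.

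**Figure D3:**
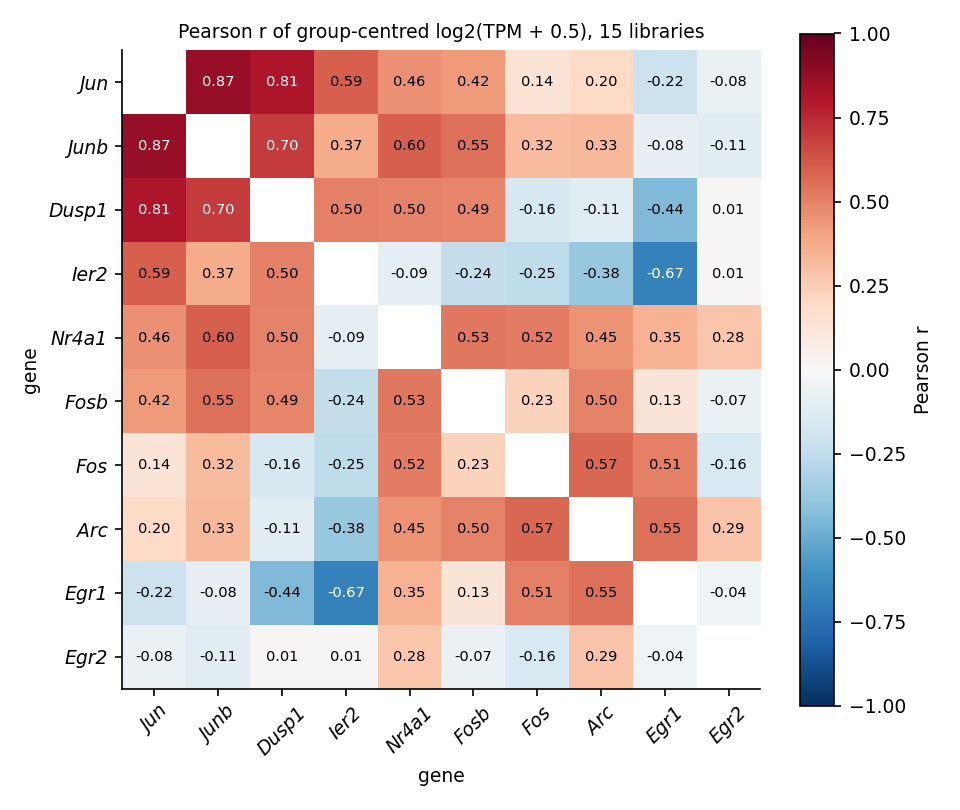
Pearson r between each pair of the 10 genes over the 15 libraries, from log2(TPM + 0.5) centred on the group means, on a colour scale from -1 (blue) to 1 (red). Jun, Junb and Dusp1 have r from 0.70 to 0.87 with each other, of which that of Jun and Junb alone passed the correction, and Egr1 and Ier2 have the most negative r, -0.67.

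A summary level of the 8 members that passed the filter (the mean of their centred, scaled values) had r between 0.21, for Egr1, and 0.88, for Junb, with the members themselves. Each member is a part of this level, which by itself raises these r. Among all other genes, the 15 most like this level were led by Aamp (r = 0.90), Slc39a7 (0.86), Carmil2 (0.86), Cacng8 (0.85) and Impdh2 (0.85), and ended with Tor2a (0.82). The 15 hold no gene of the response lists described below, yet over the same libraries r of this level was 0.78 (rho = 0.72) with the summed rapid primary response list and 0.63 (rho = 0.54) with the feedback list. With the rapid list r was 0.34 within library numbers 1 to 8 and 0.89 within 13 to 20. The 5 least like it were the snRNA gene Gm23628 (r = -0.81), Bckdhb (-0.77), Gm12976 (-0.77), Mrpl13 (-0.76) and Fastkd5 (-0.75). These are descriptions over 15 libraries, picked as extremes of the genes that passed the filter.

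Library numbers fall into 2 runs, 1 to 8 with 7 libraries and 13 to 20 with 8, both holding all 4 groups. The labels do not say what separates them. Junb had a log2 difference of -0.52 ± 0.13 (SE) in 13 to 20, a fold of 0.6998 with a 95% interval from 0.574 to 0.854, in a limma fit beside the group means (adjusted p = 0.149, unadjusted p of 0.00188). In the same fit the log2 difference was -0.23 ± 0.09 (SE) for Dusp1 and -0.18 ± 0.07 (SE) for Jun, with adjusted p of 0.290 and 0.307 by limma. Thus 3 of 8 members had an unadjusted p under 0.05, all of them lower in 13 to 20, against 14.2% of all genes in either direction and 6.08% lower, and 0 of 8 passed after adjustment, as did 0% of all genes. The share of 14.2% was 9.39% without AVP female 3 and 9.17% with no filter. Egr1 was the only one of the 8 with a difference above 0, of 0.29 ± 0.17 (SE). The unadjusted p was under 0.05 in 22 of 22 alternatives for Junb, in 17 of 23 for Dusp1 and in 16 of 23 for Jun, and the lowest adjusted p for Junb was 0.0753. This comparison was chosen after the values were seen.

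With this run as a covariate, AVP in males gave 0 calls among the members, and Nr4a1 had an adjusted p of 0.445 by limma. Within the runs, the AVP difference had the same sign in both for 7 of 10 members in males and for 2 of 10 in females. No share over all genes was set beside these counts, which include the untested Fosb and Egr2. In males, the log2 differences of Jun, Junb and Fosb in the run of lower numbers were only 0.05, 0.01 and 0.003. In females that run held 1 AVP library. The counts therefore cannot show whether the AVP difference was steadier in males than in females.

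For each library, 3 shares of all TPM were set beside the members: the share of mitochondrially encoded genes, that of cytoplasmic ribosomal protein genes and that of transcripts annotated as retaining an intron. Of the 30 relations, 4 had an adjusted p under 0.05 by the exact permutation test within groups. No share over all genes was set beside this count. It therefore cannot show whether the members follow these shares more than other genes do. The permutation test rearranges libraries across both runs, so a difference between runs shared by a member and a share stays in its p. Junb was lower where the mitochondrial share was higher, with r = -0.81 and rho = -0.79 (exact permutation, adjusted p = 0.0382 and 0.0430), and r = -0.57 without the 2 libraries farthest in that share. Within library numbers 1 to 8, r was -0.45, and within 13 to 20 it was -0.72. The share was highest in vehicle male 13 (9.36%) and vehicle female 15 (8.15%), the libraries with the lowest Junb. Dusp1 gave r = -0.70 and rho = -0.48 with the same share (exact permutation, adjusted p = 0.132 and 0.420).

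Egr1 was lower where ribosomal protein genes took more, with r = -0.81 and rho = -0.80 (exact permutation, adjusted p = 0.0382 and 0.0430) and r = -0.71 without the 2 farthest libraries. The share was lowest, at 8.50%, in AVP female 10, the library with the highest Egr1, and r was -0.55 within library numbers 1 to 8 and -0.91 within 13 to 20. Ier2 and Dusp1 went the other way, with r = 0.74 and 0.52 (exact permutation, adjusted p = 0.0382 for each). For Ier2, rho was 0.54 with an adjusted p of 0.363, and r was -0.34 within library numbers 1 to 8, so its relation did not hold within both runs. For Dusp1, rho was 0.62 (adjusted p of 0.0430), r was 0.79 without the 2 farthest libraries, and within the runs r was 0.18 and 0.40. The retained-intron share gave no relation that passed the adjusted threshold. Within library numbers 1 to 8 it was 3.65%, 3.51% and 3.90% in the AVP libraries and between 5.35% and 6.21% in the vehicle libraries. Within 13 to 20 the treatments overlapped, at 5.19% to 6.78% with AVP and 4.28% to 6.54% with vehicle. Whether these shares have a part in the members' values or in the AVP differences was not tested.

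**Figure D4:**
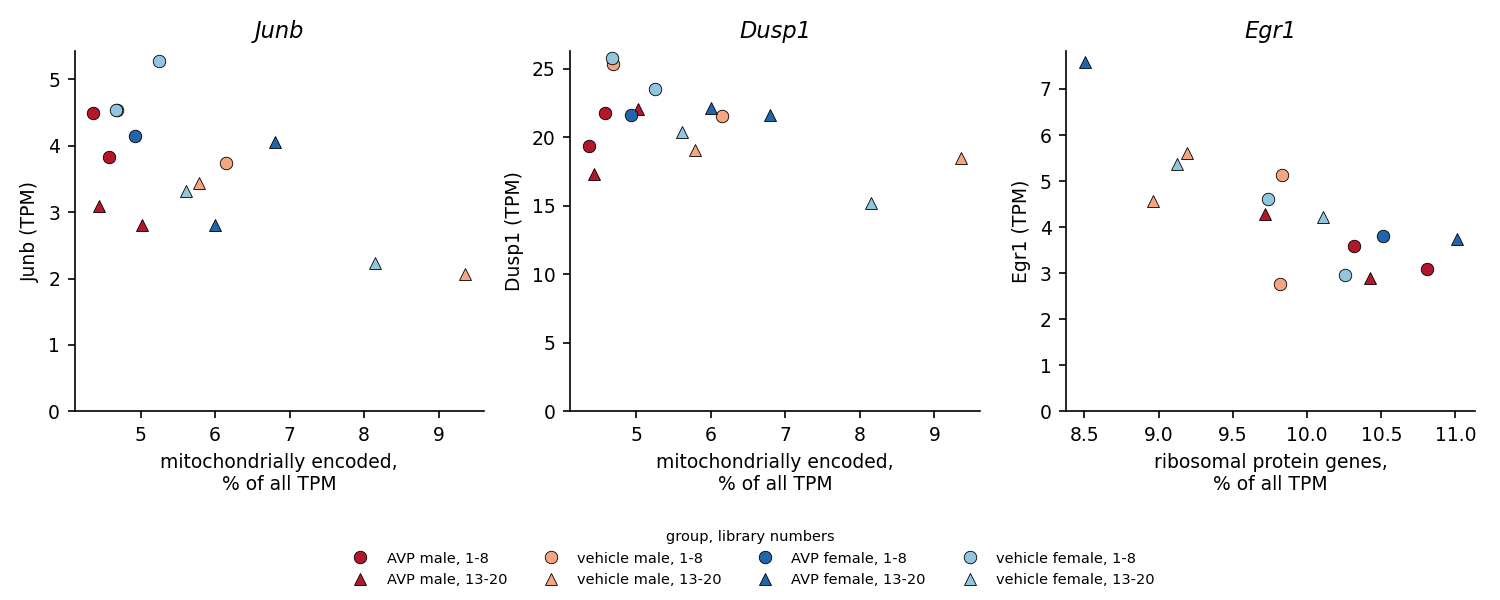
Level of Junb, Dusp1 and Egr1 (TPM, vertical axes from 0) against the share of all TPM in mitochondrially encoded genes or in ribosomal protein genes (%), with 1 point per library, coloured by group, circles for library numbers 1 to 8 and triangles for 13 to 20. Junb is lowest in the 2 libraries above 8% mitochondrial TPM, and Egr1 is highest in the library with the lowest ribosomal protein share.

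Against the summed levels of gene lists and cell type markers, 0 of 220 relations with a member passed after adjustment, and 24 had an unadjusted exact permutation p under 0.05. Here too no share over all genes was set beside the counts, so they cannot tell the members from other genes. Egr1 was closest to heat shock genes (r = 0.80, rho = 0.84, adjusted p = 0.212 and 0.210 by exact permutation) and then to red blood cell markers (r = -0.73, rho = -0.74, adjusted p = 0.232 and 0.321 by exact permutation). Within library numbers 1 to 8 and 13 to 20, r was 0.90 and 0.76 with the heat shock genes and -0.94 and -0.89 with the red blood cell markers. Without the 2 farthest libraries r was 0.68 and -0.67. All 5 red blood cell markers were expressed, and their sum ranged from 3183 to 10046 TPM in AVP males, from 2453 to 7128 in vehicle males, from 5129 to 13657 in AVP females and from 2241 to 5706 in vehicle females, none of them at 0. Their part in the Egr1 values was not tested.

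Transcripts of the pathway were read from lists of 30 other rapid primary response genes, 14 feedback phosphatases and signal inhibitors, 20 effectors of synaptic activity, 14 targets and partners of serum response and TEAD factors and 21 upstream factors. In males, 6 of 26 rapid genes tested were lower with AVP at an unadjusted p under 0.05 and 0 higher, where 12.4% of all genes were lower and 1.11% higher, and 0 passed after adjustment in limma. After quantile normalization 4 of 26 were lower and 0 higher, beside 5.02% and 4.99% of all genes, and after median-of-ratios scaling 4 were lower and 1 higher, beside 5.69% and 5.85%. The 6 were Klf10 (a log2 difference of -0.50, the lowest p, 0.000765 unadjusted), Zfp36 (-0.55), Per1 (-0.47), Bhlhe40 (-0.67), Nr4a3 (-0.53) and Sik1 (-0.23). The list's median was -0.08, above the median of -0.10 for all genes. Zfp36 is an RNA-binding protein that speeds the decay of short-lived RNAs, and Sik1 is a kinase that restrains the CREB coactivators.

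Of 21 upstream factors, 5 were lower in AVP males at that level, the CREB coactivators Crtc1, with a log2 difference of -0.35, Crtc2 (-0.75) and Crtc3 (-0.54), and Mef2d and Ncoa3, where 12.4% of all genes were lower. After quantile normalization 4 of 21 were lower, beside 5.02% of all genes, and after median-of-ratios scaling 5 of 21, beside 5.69%. Their adjusted p by limma was between 0.304 and 0.316. Of the feedback genes 2 of 14 were lower (Spred2 and Spry4), of the serum response and TEAD list 2 of 13 (Flna and Mrtfa) and of the synaptic effectors 0 of 18, read against the same 12.4%. In females, 1 of 28 rapid genes had an unadjusted p under 0.05 (Myc, with a log2 difference of -0.36), as did Plk2 of 18 synaptic effectors and, higher with AVP, Atf1 and Elk3 of 21 upstream factors, against 4.51% of all genes. The adjusted p by limma was at least 0.998 for each. The interaction with gender had an unadjusted p under 0.05 for Klf10, Zfp36, Tagln, Atf1 and Crtc3, all with an adjusted p of 0.896.

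Lists that record other states of the tissue were read in the same way. Of 15 hypoxia genes tested in males, 3 were lower at an unadjusted p under 0.05 (Vegfa, Pfkfb3 and Pfkfb4), where 12.4% of all genes were lower, and 0 of 15 had such a p in females. After quantile normalization 2 of the 15 were lower in males, beside 5.02% of all genes. Of 10 heat shock genes, Hspd1 had a log2 difference of 0.13 in males at that level, and 0 of 10 did in females. Among 13 glucocorticoid response genes, Sgk1 had a log2 difference of -0.41 in males and -0.40 in females, with unadjusted p of 0.0120 and 0.0261 and adjusted p of 0.304 and 0.999 by limma. Sgk1 encodes a kinase that glucocorticoids induce. Zbtb16 in males (-0.41) and Sult1a1 in females (0.66) also had an unadjusted p under 0.05, and none of the genes of these lists passed after adjustment.

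The transcripts behind the members' levels differed in number. Jun, Ier2 and Nr4a1 each had 1 transcript in the table, and Jun and Ier2 are genes of 1 exon. The main transcript held 99.4% of Junb and 95.5% of Egr1. The protein-coding form of Dusp1 held 84.3% of the gene's TPM, and 2 retained-intron forms held 10.8% and 4.45%, with a share of coding transcripts between 73.0% and 91.0% over the libraries. For Fos, the coding transcript held 75.4%, and its share ranged from 46.1% to 100% of the gene in a library. Arc was divided between 2 transcripts (66.3% and 33.7%) of 3055 and 3054 bases, so the division is uncertain.

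By the GENCODE M21 annotation (GRCm38) the genes lie apart on the genome. Jun is at chr4:95049034-95052222, Fosb at chr7:19302696-19310051, Egr2 at chr10:67535475-67542188, Fos at chr12:85473890-85477273, Egr1 at chr18:34859823-34864984 and Dusp1 at chr17:26505590-26562128. Junb (chr8:84974484-84978718) and Ier2 (chr8:84661331-84662852) share a chromosome, as do Arc (chr15:74669083-74672570) and Nr4a1 (chr15:101254269-101274795). The r of Junb and Ier2 was 0.37 and that of Arc and Nr4a1 was 0.45.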

How the data were processed

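mRNA-seq libraries (stranded, 150 bp paired-end) of 15 E18 dorsal forebrains were analysed from the table of transcript values. According to the labels and the study's methods, the authors trimmed reads with Trim Galore 0.4.1, quantified them with kallisto 0.43.1 on GENCODE M16 transcripts (GRCm38) and tested with sleuth 0.29.0. The deposited values are TPM made by the authors, with no further scaling between libraries. TPM hold no counts, and the study's methods give read numbers as an average over samples and not per library, so no counting interval was given.

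Gene values (53337 genes) are sums of the TPM of 133849 transcripts by GENCODE M21, and 404 transcripts without a gene there (0.154% to 0.199% of TPM) were left out. Genes with at least 1 TPM in 50% of the libraries compared entered limma 3.58.1 as log2(TPM + 0.5) (R 4.3.3, mean-variance trend, two-sided), adjusted by Benjamini-Hochberg over all genes tested at 0.05. Males and females were fitted separately, and the other comparisons over all 15 libraries. Correlations used group-centred values and exact two-sided tests over the 82944 rearrangements of libraries within groups (100000 random ones where values were not centred), with Benjamini-Hochberg adjustment over 45 pairs, 30 relations with library measures or 220 relations with lists. Rearrangements were not kept within the library number runs. RefSeq promoters were searched on both strands. The limma and correlation code was tested on simulated data. Figures were drawn with matplotlib 3.10.9.

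The members and lists were chosen with earlier results of these data known. Genes of a list were named where an unadjusted p was under 0.05, and the 15 most and 5 least like genes by r were considered for naming. Promoter windows beyond the start were searched but not printed. Alternatives were quantile and median-of-ratios scaling, pseudocounts of 0.1 and 1, no filter or 5 TPM in every library, no trend, the library number run as a covariate, protein-coding transcripts only, a single fit of every library, and each library left out in turn. The comparison of library numbers was added after the values were seen, as were both alternatives for the levels and the counts of list genes under each alternative.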

Additional observations from a re-analysis of the deposited data

Results flagged for a closer look

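In 3 of 30 groups of 4 libraries (10 genes in the 3 groups of that size), 1 library stood apart from the other three by Dixon's ratio of its gap to the group's range, which chance gives in about 1 of 20 groups. Arc in vehicle male 13 was at 0.574 TPM, where the other three lay between 1.13 and 1.14 TPM (ratio 0.985). Ier2 was at 7.47 TPM in AVP male 8 (ratio 0.853) and at 9.54 TPM in vehicle female 15 (ratio 0.858), below the rest of its group in both. The AVP effect differed between genders past the adjusted threshold in limma for 0 members (0 of 8 at an unadjusted p under 0.05).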

How the results depend on the processing

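In each AVP and gender comparison and under every alternative run, 0 members passed the adjusted threshold, and the smallest adjusted p of a member was 0.203. Of 266 log2 differences of members in males and females under alternatives, 31 changed sign, with 0 changes for Nr4a1 in either gender. Over all genes tested, the call count in males was 1 and became 0 with a pseudocount of 1, the 5 TPM filter, the run as a covariate, protein-coding transcripts or 1 fit of all libraries, and 2 with no trend. Leaving out 1 library gave between 0 and 6 in males, 0 and 6 in females, 0 and 1 for the interaction, 0 and 1 for AVP over all libraries, 0 and 7 for gender and 0 and 37 for the library numbers, the highest being without AVP male 2, without vehicle female 15, without vehicle male 4, without AVP female 10, without vehicle female 6 or vehicle male 12, and without AVP female 11 in turn. For the library numbers it was 42 after quantile normalization and 15 with protein-coding transcripts. The mean r of the pairs was 0.13 after quantile normalization and 0.13 after median-of-ratios scaling, 0.25 by Spearman rho and 0.12 in library numbers 1 to 8 alone, and between 0.15 and 0.28 leaving out 1 library, lowest without vehicle male 13. The number of pairs called was 1, became 3 under each scaling (Jun with Junb, Ier2 and Dusp1), 0 with protein-coding transcripts or Spearman rho, and was between 0 and 2 leaving out 1 library. The cause was not tested. No paired analysis was possible because the replicate numbers are not shared between groups. Without read counts per library, no detection limit could be given for Egr2 and Fosb.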
